A study of Homo sapiens with 18 samples.

Results

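Readers of N6-methyladenosine (m6A), the commonest internal modification of mRNA, are the proteins that bind the modified base and set the fate of the transcript. The 10 genes described here encode the YTH-domain readers (YTHDF1, YTHDF2, YTHDF3, YTHDC1 and YTHDC2), the IGF2BP readers (IGF2BP1, IGF2BP2 and IGF2BP3) and the nuclear proteins HNRNPA2B1 and HNRNPC. They were chosen by name, out of 19974 protein-coding genes on chromosomes 1 to 22 and X, and not by any value measured here. Earlier results of these data were known when the choice was made. For each, the CUT&Tag peaks over the gene body or within 10 kb of it were examined, a stretch called the gene window below. CUT&Tag is an assay in which an antibody on chromatin directs a transposase to insert sequencing adapters beside its target.

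The chromatin came from A549, a human lung adenocarcinoma line. The cells were YTHDF1-KO (knockout of YTHDF1), siARID1A (knockdown of ARID1A by siRNA) or WT (wild type), and each was profiled with an antibody against ARID1A and with one against YTHDF1. Each of the 6 combinations had 2 replicates, which gives 12 libraries with a peak list, while the 6 IgG libraries and the combined knockout and knockdown named in the series' design were not analysed here. The sources used here do not say how the knockout was made, whether it is 1 clone, when cells were taken after knockdown, or whether WT cells received a control siRNA. They also do not say where replicates came from, and a p-value therefore covers the spread between the 2 libraries of a group, which may be technical. In the limma fit used below that spread is pooled over the 6 groups. ARID1A is a subunit of the BAF chromatin remodelling complex, and the question put by the series' design is where it and YTHDF1 occupy the genome in each condition.

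YTHDF1, YTHDF2 and YTHDF3 are mainly cytoplasmic. YTHDF2 is best known for bringing bound mRNA to deadenylation and decay, and YTHDF1 for promoting translation, although how far the 3 differ is debated. YTHDC1 is the nuclear YTH reader, with roles in splicing and export, and YTHDC2 carries a helicase and is known from meiosis. The IGF2BP proteins stabilise their target mRNAs, and IGF2BP1 and IGF2BP3 are fetal proteins that many carcinomas express again. In a YTHDF1 profile the readers' own genes are loci like any other, so a peak there reports chromatin at the gene and not the protein's amount. Nor does a peak at YTHDF1 in knockout cells test the knockout, since the sources do not say what was edited at the locus.

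The antibodies gave lists of different length, and that touches every value below. The anti-ARID1A lists held 71271 to 106882 peaks and the anti-YTHDF1 lists 40562 to 59632. Over all protein-coding genes the mean share of a gene window covered by peaks was 12.5% to 27.2% in anti-ARID1A libraries and 6.70% to 11.9% in anti-YTHDF1 libraries. Anti-ARID1A peaks covered 113 ± 20.3 Mb in siARID1A cells and 247 ± 27.2 Mb in WT cells (SD, n = 2 each). Anti-YTHDF1 peaks covered 59.4 ± 2.25 Mb in YTHDF1-KO cells, in which the labels give the antibody's target as knocked out, and 69.5 ± 28.4 Mb in WT cells (SD, n = 2 each). The lists of these knockout cells held 50774 and 46225 peaks, between the 57764 and 40562 of WT cells. The depth of the libraries is unknown. The 6 epithelial markers fixed for A549 had a peak at an annotated end in 7 to 12 lists (median 10.5), and 11 markers of blood, neuron, muscle and liver in 0 to 11 lists (median 9), so peak lists did not set the cell type apart. Among those 11, PTPRC and ALB had none.

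Promoter sequences of 8 of the 10 genes were given by RefSeq for GRCh38.p14, the build to which the lists' hg38 coordinates belong, as 250 bases before to 50 after the annotated start. The 5 printed here are 3 of the starts that every list held and 2 that anti-YTHDF1 lists mostly lacked. YTHDF1 (chr20:63216082-63216381, minus strand), HNRNPA2B1 (chr7:26200697-26200996, minus strand) and HNRNPC (chr14:21269393-21269692, minus strand) form the first kind, with a peak within 1 kb of the start in all 12 lists. YTHDC1 (chr4:68350041-68350340, minus strand) and YTHDC2 (chr5:113513444-113513743, plus strand) form the second kind. Sequences run 5′ to 3′ along the gene, and capitals mark matches on either strand to the motifs described after them.
YTHDF1: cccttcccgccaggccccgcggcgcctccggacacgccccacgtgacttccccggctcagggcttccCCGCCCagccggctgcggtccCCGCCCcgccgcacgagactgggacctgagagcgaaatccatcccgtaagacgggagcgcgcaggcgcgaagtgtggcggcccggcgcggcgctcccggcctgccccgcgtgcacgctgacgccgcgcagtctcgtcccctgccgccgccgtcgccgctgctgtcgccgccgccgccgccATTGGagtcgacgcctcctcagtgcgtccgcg
HNRNPA2B1: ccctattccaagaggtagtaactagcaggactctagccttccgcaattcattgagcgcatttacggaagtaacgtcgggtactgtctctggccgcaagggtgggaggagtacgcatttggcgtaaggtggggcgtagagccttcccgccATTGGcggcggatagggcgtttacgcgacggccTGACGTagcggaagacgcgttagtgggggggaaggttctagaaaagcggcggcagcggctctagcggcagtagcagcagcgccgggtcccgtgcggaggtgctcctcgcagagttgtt
HNRNPC: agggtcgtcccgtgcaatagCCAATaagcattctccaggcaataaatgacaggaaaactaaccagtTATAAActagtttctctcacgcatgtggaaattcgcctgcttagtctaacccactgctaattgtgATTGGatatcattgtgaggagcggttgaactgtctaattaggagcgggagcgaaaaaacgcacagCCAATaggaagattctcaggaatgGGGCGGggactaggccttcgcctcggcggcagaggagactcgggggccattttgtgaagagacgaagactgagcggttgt
YTHDC1: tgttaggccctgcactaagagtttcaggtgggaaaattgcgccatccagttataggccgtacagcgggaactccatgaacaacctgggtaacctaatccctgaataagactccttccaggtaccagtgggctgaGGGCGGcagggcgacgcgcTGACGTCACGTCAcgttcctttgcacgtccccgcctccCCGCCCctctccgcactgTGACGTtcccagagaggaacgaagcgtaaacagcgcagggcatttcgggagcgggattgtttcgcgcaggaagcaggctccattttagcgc
YTHDC2: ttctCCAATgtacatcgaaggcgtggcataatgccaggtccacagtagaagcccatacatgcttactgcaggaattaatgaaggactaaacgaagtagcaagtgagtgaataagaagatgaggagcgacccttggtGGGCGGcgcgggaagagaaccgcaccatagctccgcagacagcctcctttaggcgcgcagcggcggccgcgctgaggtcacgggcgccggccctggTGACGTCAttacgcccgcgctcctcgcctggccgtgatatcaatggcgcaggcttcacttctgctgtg

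Every motif was searched on both strands of 1 promoter a gene, the one at the annotated start. The table also holds a second promoter for YTHDF2 and one for IGF2BP2, which the counts over the 8 readers leave out. The YTHDF1 promoter held 50 CG dinucleotides in 300 bases, more than 98.7% of the 35116 promoters in the table, whose median was 14. The 8 readers ranged from 15, at HNRNPC, to 50, with a median of 24. The promoter of IGF2BP3, whose start every list also held, is not printed: it had 17 CG dinucleotides and no match to the motifs below. A GC box, GGGCGG, occurred in 6 of the 8, against 45.0% of all promoters. The CCAAT box, spelled as its name says, occurred in 4 of the 8, against 34.6% of all promoters, and HNRNPC had 3 of them. HNRNPC was also the one reader of the 8 with a TATA box, TATAAA, at this start, and 11.5% of all promoters hold one. The second IGF2BP2 promoter (chr3:185821093-185821392, minus strand) had 1 TATA box, 1 CCAAT box, 1 AP-1 match and 3 CG dinucleotides, and the second YTHDF2 promoter (chr1:28736690-28736989, plus strand) 1 CCAAT box and 43 CG dinucleotides. TGACGT, the core of the cAMP response element (CRE), occurred in 3 of the 8, HNRNPA2B1, YTHDC1 and YTHDC2, against 7.98% of all promoters. YTHDC1 held 4 such matches and YTHDC2 2, but the full palindrome TGACGTCA, present once in each of these promoters and in 1.85% of all, counts as 2 overlapping matches. An ETS motif, CCGGAAGT, was in none of the 8 and in 4.14% of all promoters, and likewise AP-1, TGANTCA, in none of the 8 at the annotated start and in 7.71%. NRF1, searched by its palindromic motif, was in none of the 8 and in 1.24%. A match describes the letters alone.

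YTHDF1 lies on chromosome 20 at 63195429 to 63216131 (minus strand), a body of 20703 bp. Most of its peaks lay outside the gene body. Of the 31 anti-ARID1A peaks in the window over the 6 libraries, 6 lay over the start, 9 in the body, 7 in the upstream flank and 9 in the downstream flank. Of the 36 anti-YTHDF1 peaks, 5 lay over the start, 5 in the body, 15 in the upstream flank, 9 in the downstream flank and 2 over the other end. Upstream signal was broad: the widest peak, in WT replicate 2 with anti-ARID1A, spanned 23014 bp and ranked at the 99.5th percentile of its list by total signal. Its near edge lay at -6167 bp relative to the start, so most of its width lay beyond the 10 kb flank. A percentile here is the share of the same list's peaks with a lower total signal, as the authors' own signal column gives it, and it describes a list only.

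With anti-ARID1A, peaks covered 51.4% and 47.0% of the YTHDF1 window in YTHDF1-KO libraries, 30.8% and 35.3% in siARID1A libraries and 33.7% and 59.1% in WT libraries. With anti-YTHDF1 they covered 17.1% and 9.45% in YTHDF1-KO, 26.2% and 23.8% in siARID1A and 32.0% and 13.5% in WT libraries. With either antibody the WT replicates spanned most of the range of the other conditions, so no order of the 3 conditions stood clear of the spread. The start carried a peak in every one of the 12 lists, knockout included. With anti-YTHDF1 that peak was narrow and of middle rank, 567 and 1139 bp wide at percentiles 36.4 and 69.5 in YTHDF1-KO, 1210 and 994 bp at percentiles 77.7 and 68.5 in siARID1A, and 1477 and 1083 bp at percentiles 53.9 and 63.1 in WT. In WT replicate 1 this peak ended upstream, within 1 kb of the start but not over it. With anti-ARID1A the start peak measured 1729 to 9420 bp, at percentiles 74.4 to 98.4. The upper end of both ranges is siARID1A replicate 2, whose peak reached the start but had its place of highest signal at -8569 bp relative to it.

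The neighbourhood of YTHDF1 was densely covered as a whole. With anti-ARID1A, YTHDF1 averaged 49.2% in YTHDF1-KO cells, beside a median of 56.2% over the 84 protein-coding genes within 5 Mb and of 12% over all genes. In siARID1A cells it averaged 33.1%, beside 35.1% nearby and 5.33% over all genes, and in WT cells 46.4%, beside 56.3% nearby and 12.6% over all genes. With anti-YTHDF1 its mean was 13.3% in YTHDF1-KO (18.5% nearby), 25% in siARID1A (33.7% nearby) and 22.7% in WT cells (27.8% nearby). YTHDF1 thus stood above most genes of the genome and below the middle of its own region in all 6 groups.

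**Figure D1:**
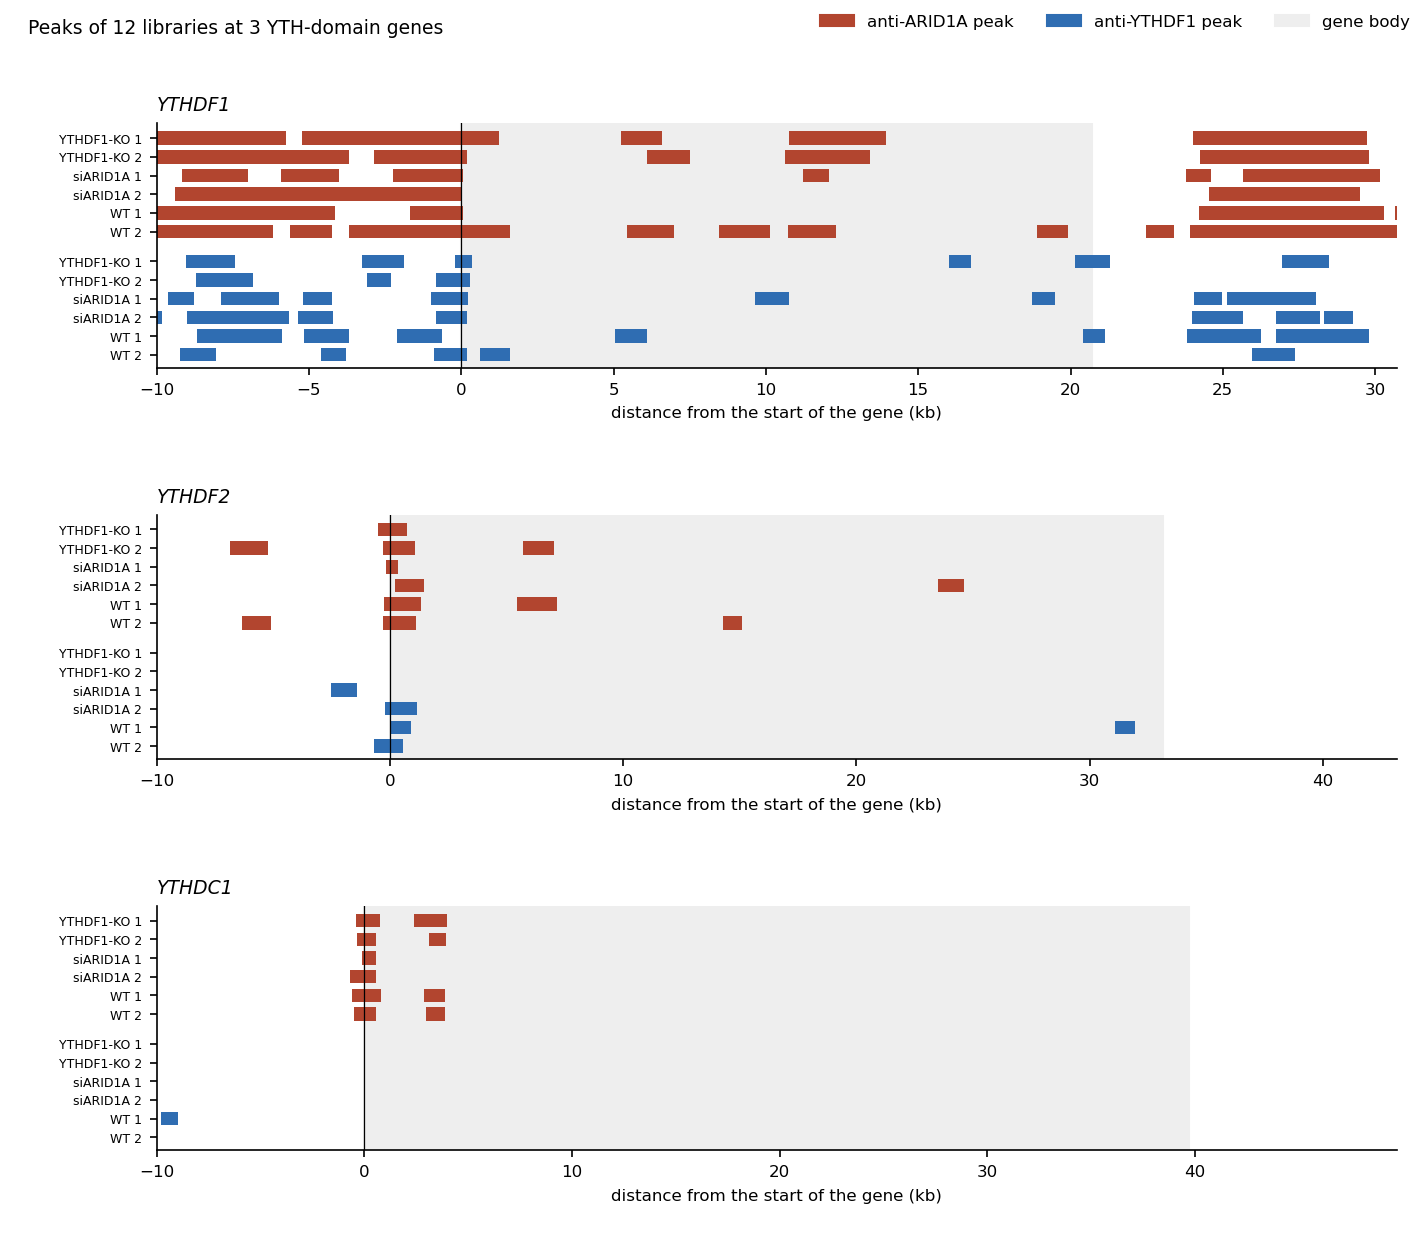
Peaks of each library, as bars, along the windows of YTHDF1, YTHDF2 and YTHDC1, by distance from the gene's start in kb, with the gene body shaded and rows grouped by antibody, condition and replicate. YTHDF1 has a peak within 1 kb of its start in all 12 libraries, YTHDF2 has none in the 2 anti-YTHDF1 libraries of YTHDF1-KO cells, and YTHDC1 has start peaks in the 6 anti-ARID1A libraries alone.

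YTHDF2 (chromosome 1, 28736624 to 28769775, plus strand) carried few and weak peaks. With anti-ARID1A they covered 2.28% and 8.19% of the window in YTHDF1-KO, 0.991% and 4.48% in siARID1A and 6.2% and 6.51% in WT libraries. With anti-YTHDF1 both YTHDF1-KO libraries had no peak at all, against 2.06% and 2.57% in siARID1A and 3.23% and 2.29% in WT libraries. The start was held by all 6 anti-ARID1A lists and by 3 of 6 anti-YTHDF1 lists, namely both of WT, at percentiles 14.0 and 15.3, and siARID1A replicate 2, at percentile 53.6. YTHDF2 was less densely covered than the genes around it: with anti-ARID1A in WT cells it averaged 6.35%, against a median of 31.2% over the 157 genes within 5 Mb, of which 6.37% lay lower.

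YTHDF3 (chromosome 8, 63168553 to 63212788) had no strand in the tables used, so its positions are counted from the lower-coordinate end. Anti-ARID1A peaks covered 14.7% and 13.4% of the window in YTHDF1-KO, 8.27% and 5.95% in siARID1A and 16.7% and 16.5% in WT libraries. Anti-YTHDF1 peaks covered 1.91% and 3.30% of it in YTHDF1-KO, 3.99% and 1.22% in siARID1A and 3.21% and 2.57% in WT libraries. The antibodies did not overlap in any library at this gene, and the siARID1A libraries were the lowest with anti-ARID1A. The peak at the lower end ranked at percentiles 81.0 to 93.8 with anti-ARID1A and 9.33 to 62.4 in the 5 anti-YTHDF1 lists that held it. A second recurrent region, 50.4 to 56.6 kb from that end, was held by 6 anti-ARID1A and 2 anti-YTHDF1 lists. In contrast to YTHDF2, YTHDF3 stood above its surroundings: 86.5% of the 37 genes within 5 Mb were lower in WT cells with anti-ARID1A, where their median was 4.98%.

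In the full lists, which are unequal in length, the start of YTHDC1 separated the antibodies completely. The gene lies on chromosome 4 at 68310387 to 68350090 (minus strand), among 52 genes within 5 Mb whose median coverage was 0% in every group. Anti-ARID1A peaks covered 4.61% and 2.91% of its window in YTHDF1-KO, 1.19% and 2.08% in siARID1A and 4.02% and 3.32% in WT libraries, and a peak of 709 to 1376 bp lay over the start in each. Its place of highest signal lay from 48 bp before to 40.5 bp after the start, inside the promoter printed above. These start peaks ranked at percentiles 34.3 to 50.7. With all lists cut to equal length, the antibodies differed by 0.198 points in coverage of this window (adjusted p = 0.410, limma). With anti-YTHDF1, 5 libraries had no peak anywhere in the window, and WT replicate 1 had a single peak, at -8997 bp relative to the start, that covered 1.35%. A region 2.4 to 4.0 kb into the gene was also held by 4 anti-ARID1A lists, those of YTHDF1-KO and WT cells, and by no other list.

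YTHDC2 (chromosome 5, 113513694 to 113595284, plus strand) was sparsely covered, with 7 anti-ARID1A and 4 anti-YTHDF1 peaks in all. Anti-ARID1A coverage was 2.25% and 1.27% in YTHDF1-KO, 0.791% and 0% in siARID1A and 2.18% and 1.77% in WT libraries. Anti-YTHDF1 coverage was 1.04% and 0% in YTHDF1-KO, 0% and 2.83% in siARID1A and 1.23% and 0% in WT libraries. The start was held by 5 of 6 anti-ARID1A lists, all but siARID1A replicate 2, and by 1 of 6 anti-YTHDF1 lists, siARID1A replicate 2. Its anti-ARID1A rank was 65.3 and 57.6 in YTHDF1-KO, 4.29 in siARID1A replicate 1, and 57.3 and 46.2 in WT libraries.

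IGF2BP1 (chromosome 17, 48996558 to 49056145, strand not in the tables used) was covered along its length. Anti-ARID1A peaks covered 54.0% and 53.6% of the window in YTHDF1-KO, 21.2% and 24.3% in siARID1A and 37.4% and 46.1% in WT libraries. Anti-YTHDF1 peaks covered 13.9% and 8.86% in YTHDF1-KO, 16.1% and 11.5% in siARID1A and 16.1% and 5.29% in WT libraries. With anti-ARID1A the 3 conditions did not overlap one another, YTHDF1-KO being the highest and siARID1A the lowest, while with anti-YTHDF1 they overlapped. The peak at the lower-coordinate end ranked at percentiles 94.9 to 98.8 with anti-ARID1A and 92.1 to 98.8 with anti-YTHDF1, high in the lists of both. A second region held by all 12 lists lay 12.9 to 33.9 kb from that end.

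The surroundings of IGF2BP1 moved with it. With anti-ARID1A it averaged 53.8% in YTHDF1-KO, 22.8% in siARID1A and 41.7% in WT cells, while the median over the 142 genes within 5 Mb was 62.8% in YTHDF1-KO, 33.4% in siARID1A and 49.4% in WT cells. The difference of YTHDF1-KO from WT was 12.1 percentage points at IGF2BP1, against a median of 7.63 over these neighbours and 0 over all genes. The part of the region in the value at IGF2BP1 was not tested.

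IGF2BP2 (chromosome 3, 185643130 to 185825042, minus strand) and IGF2BP3 (chromosome 7, 23310209 to 23470491, minus strand) are the longest of the 10 genes, and scattered peaks lay along both. At IGF2BP2, anti-ARID1A coverage was 13.8% and 12.2% in YTHDF1-KO, 3.70% and 3.85% in siARID1A and 11.8% and 10.6% in WT libraries. Anti-YTHDF1 coverage there was 1.08% and 0.946% in YTHDF1-KO, 1.39% and 1.78% in siARID1A and 2.64% and 0.855% in WT libraries. The siARID1A libraries stood far below the other anti-ARID1A libraries and still above every anti-YTHDF1 library. At IGF2BP3, anti-ARID1A coverage was 13.7% and 13.3% in YTHDF1-KO, 4.52% and 6.91% in siARID1A and 12.1% and 15.6% in WT libraries. Anti-YTHDF1 coverage was 3.73% and 2.4% in YTHDF1-KO, 5.09% and 4.48% in siARID1A and 4.24% and 4.12% in WT libraries. Here the siARID1A values with the 2 antibodies overlapped.

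The starts of these long genes also differed. IGF2BP3 had a start peak in all 12 lists, at percentiles 94.3 to 97.3 with anti-ARID1A and 30.6 to 96.5 with anti-YTHDF1. IGF2BP2 had one in 6 anti-ARID1A lists, at percentiles 55.1 to 89.1, and in 3 anti-YTHDF1 lists, which were both of WT (22.2 and 30.4) and siARID1A replicate 1 (72.8). Inside IGF2BP2, a region 26.7 to 30.0 kb from the start was held by all 6 anti-ARID1A lists and no anti-YTHDF1 list, and a region at 163 to 171.2 kb by 6 anti-ARID1A and 2 anti-YTHDF1 lists. Inside IGF2BP3, a region 134.2 to 138.5 kb from the start was held by 6 anti-ARID1A and 3 anti-YTHDF1 lists, with a median percentile of 94.0 with anti-ARID1A and 37.5 with anti-YTHDF1. The far flank of the IGF2BP3 window reaches MALSU1, a gene for mitochondrial ribosome assembly, and that of IGF2BP2 reaches SENP2, which encodes a SUMO protease, so peaks there cannot be given to the readers alone.

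**Figure D2:**
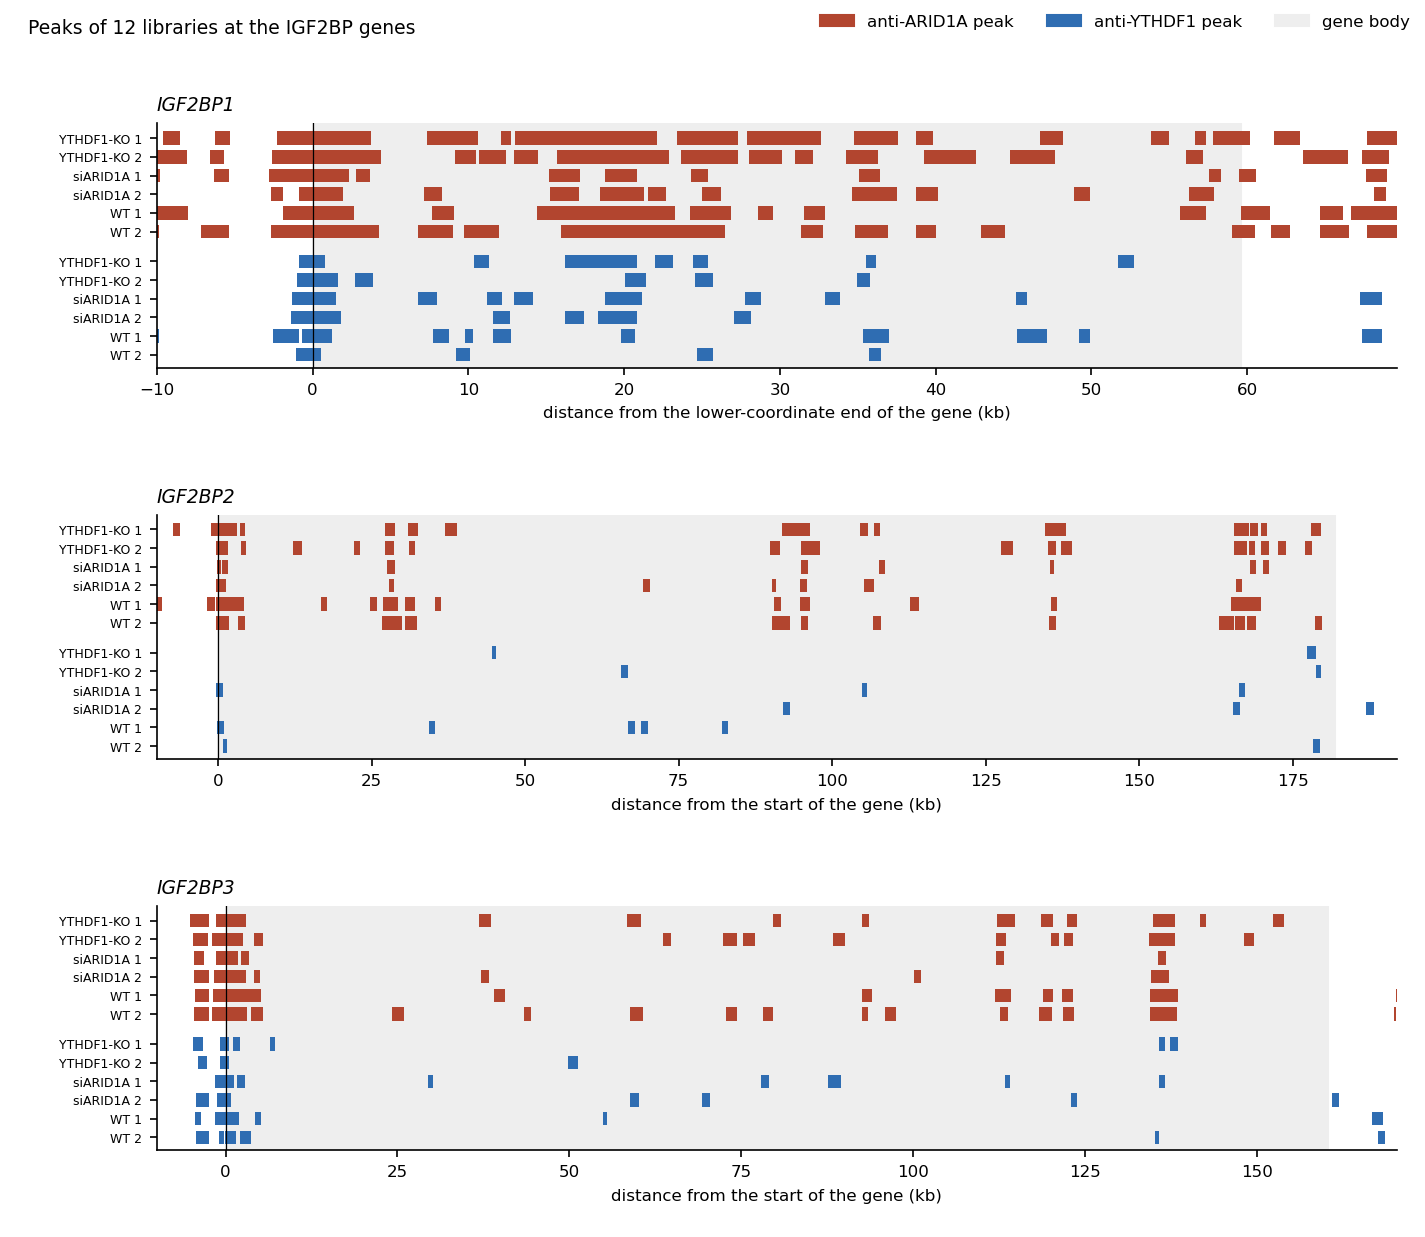
Peaks of each library, as bars, along the windows of IGF2BP1, IGF2BP2 and IGF2BP3, by distance in kb from the start (for IGF2BP1, from its lower-coordinate end), with the gene body shaded and rows grouped by antibody, condition and replicate. Anti-ARID1A peaks cover less of each window in the siARID1A rows, and the recurrent regions 26.7 to 30.0 kb into IGF2BP2 and 134.2 to 138.5 kb into IGF2BP3 appear in all 6 anti-ARID1A rows.

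HNRNPA2B1 encodes a nuclear protein linked to m6A in the processing of primary microRNAs, and HNRNPC binds uridine tracts that m6A exposes in RNA structure. HNRNPA2B1 (chromosome 7, 26189927 to 26200746, minus strand) is the shortest of the 10 genes. Anti-ARID1A peaks covered 22.8% and 24.3% of its window in YTHDF1-KO, 7.16% and 11.5% in siARID1A and 25.4% and 10.1% in WT libraries. Anti-YTHDF1 peaks covered 8.11% and 3.68% in YTHDF1-KO, 4.00% and 4.94% in siARID1A and 7.95% and 5.24% in WT libraries. The WT replicates with anti-ARID1A lay near the top and near the bottom of the 6 libraries of that antibody. The start peak was among the strongest of both antibodies, at percentiles 91.0 to 96.3 with anti-ARID1A and 82.5 to 95.3 with anti-YTHDF1. CBX3, which encodes the heterochromatin protein HP1 gamma, starts 697 bp away on the other strand. A peak over the HNRNPA2B1 start thus lies within 1 kb of both starts and cannot be given to 1 of the 2 genes alone. Another gene, NFE2L3 (chromosome 7, 26152198 to 26187137, plus strand), reaches into the downstream flank of the window. That flank held 8 of the 17 anti-ARID1A peaks and 1 of the 8 anti-YTHDF1 peaks, so these cannot be given to HNRNPA2B1 alone.

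HNRNPC (chromosome 14, 21209147 to 21269442, minus strand) had anti-ARID1A coverage of 24.7% and 16.8% in YTHDF1-KO, 6.81% and 10.6% in siARID1A and 13.1% and 21.0% in WT libraries. Its anti-YTHDF1 coverage was 2.02% and 6.46% in YTHDF1-KO, 6.57% and 3.56% in siARID1A and 5.51% and 3.19% in WT libraries. The antibodies did not overlap here. Its start peak was narrow, 1172 to 2006 bp with anti-ARID1A and 967 to 1626 bp with anti-YTHDF1, at percentiles 89.8 to 94.6 with anti-ARID1A and 57.5 to 89.0 with anti-YTHDF1. In this gene the lowest anti-YTHDF1 ranks were those of YTHDF1-KO, 57.5 and 68.2, against 86.6 and 81.2 in siARID1A and 89.0 and 81.8 in WT libraries. Ranks in lists of different length show no change of level. The place of highest signal lay upstream of the start in all 12 libraries.

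**Figure D3:**
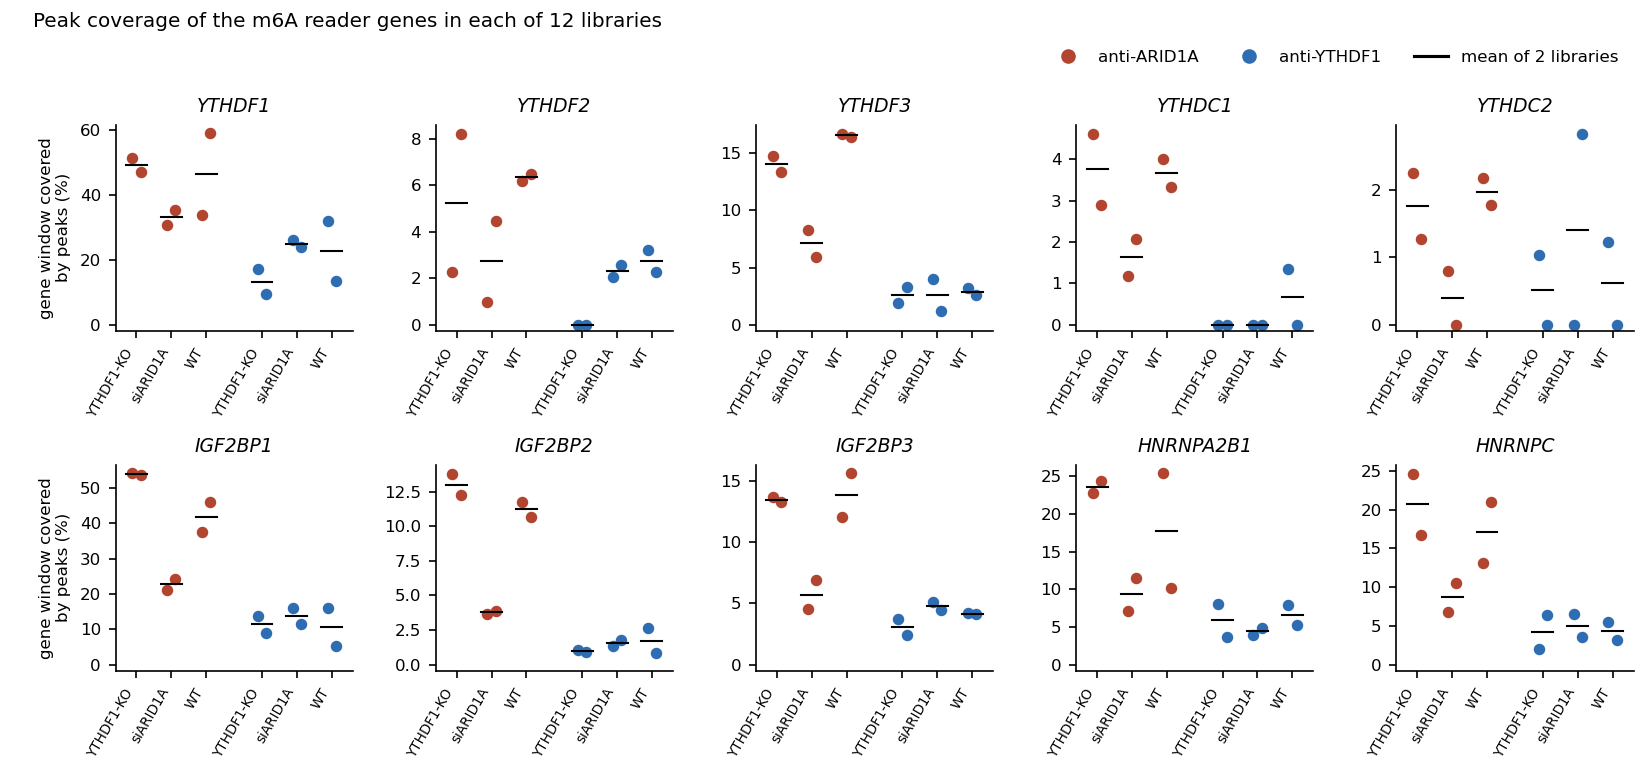
Percent of each gene window covered by peaks, for the 10 readers, with 1 point per library, a bar at the mean of 2 libraries, and YTHDF1-KO, siARID1A and WT from left to right within each antibody. The vertical axes start at 0 and differ between panels. Anti-ARID1A values exceed anti-YTHDF1 values without overlap at YTHDF3, IGF2BP1, IGF2BP2 and HNRNPC.

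The first comparison set the ARID1A antibody against the YTHDF1 antibody. Over the 3 conditions the anti-ARID1A libraries covered more of 9 of the 10 reader windows, YTHDC2 being the exception. The differences ran from 2.80 ± 0.380 percentage points (SE) at YTHDC1 to 27.5 ± 2.59 at IGF2BP1 (adjusted p = 0.000121 by limma), and YTHDF1 itself had 42.9% ± 11.3 with anti-ARID1A and 20.3% ± 8.46 with anti-YTHDF1 (SD, n = 6 each). Of all 19974 genes 72.6% were higher with anti-ARID1A by the same test, and 73% were called in either direction, so that 9 of 10 is not far from what any gene showed. The test was limma on covered percent over all genes with Benjamini-Hochberg adjustment at 0.05, and the adjusted p was 0.00540 for YTHDF1 (22.5 ± 5.11 points), 0.0323 for YTHDF2 (3.09 ± 1.07), 0.000106 for YTHDF3 (9.88 ± 0.897) and 0.000529 for YTHDC1. At YTHDC2 the difference was 0.528 points, with a 95% interval of -0.729 to 1.78 and an adjusted p of 0.403 in the limma fit.

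In the same fit the adjusted p was 5.41e-05 for IGF2BP2 (7.88 ± 0.560 points), 0.00048 for IGF2BP3 (7.01 ± 0.931), 0.00707 for HNRNPA2B1 (11.2 ± 2.71) and 0.00291 for HNRNPC (10.9 ± 2.17). The 4 genes YTHDF3, IGF2BP1, IGF2BP2 and HNRNPC had no overlap between the 6 libraries of each antibody, against 23.6% of all genes higher in this way and 0.03% lower. An exact permutation test that exchanged antibodies within each condition gave 0.00926, the smallest p it allows, at 7 readers, and adjusted values of 0.0263 to 0.0480 at the 9 after Benjamini-Hochberg adjustment over all genes. Over the gene body without flanks 6 readers passed, and YTHDF1, YTHDF2 and HNRNPA2B1 lost the call. YTHDF2 also lost it when any 1 of 9 of the 12 libraries was left out. With all lists cut to equal length 6 passed: YTHDF2 (0.941 points), YTHDC1 (0.198) and HNRNPC (2.45) lost the call. The median difference was 8.88 points over the readers and 6.80 over all genes. The result depends on scale: with every library brought to the same mean coverage, an alternative chosen after seeing the data, 3 readers (YTHDF3, YTHDC1 and IGF2BP2) remained higher and YTHDF1 had -1.90 points (adjusted p = 0.779, limma). Over all genes that scaling called 3550 higher and 1398 lower, in place of 14494 and 93, and centring each library on its median called 7304 higher and 8226 lower. Among the 5 readers called after centring, YTHDF1 and IGF2BP1 were higher, while YTHDF2 (-4.22 points), YTHDC1 (-4.51) and YTHDC2 (-6.77) were lower with anti-ARID1A, and the median over all genes was -0.502 points. Centring takes the same number of points off every gene's difference, so a gene with little anti-ARID1A coverage comes out lower whatever its peaks do. Before centring the differences were 3.09 points at YTHDF2, 2.80 at YTHDC1 and 0.528 at YTHDC2.

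At the start itself, 9 readers were held by all 6 anti-ARID1A lists (52.7% of all genes) and 5 by all 6 anti-YTHDF1 lists (14.9%). The 5 are YTHDF1, IGF2BP1, IGF2BP3, HNRNPA2B1 and HNRNPC, and they are also the 5 held by all 12 lists, against 14.6% of all genes. In full lists, unequal in length, YTHDC1 alone was held by 6 anti-ARID1A and 0 anti-YTHDF1 lists, a pattern of 2.24% of all genes. Its two-sided Fisher's exact p was 0.00216, the smallest that 6 against 6 lists can give, and 0.0965 after Benjamini-Hochberg adjustment over all genes. By that test 0 of 19974 genes passed the threshold, 1803 (9.03%) more often held with anti-ARID1A and 3 (0.015%) more often held with anti-YTHDF1 had an unadjusted p under 0.05, and YTHDC1 was the only reader among them. Where a start was held, the readers' peaks had a median percentile of 80.8 to 94.6 in the anti-ARID1A libraries and 47.0 to 86.6 in the anti-YTHDF1 libraries, beside medians over all genes with a start peak of 80.6 to 84.4 with anti-ARID1A and 71.8 to 77.7 with anti-YTHDF1.

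**Figure D4:**
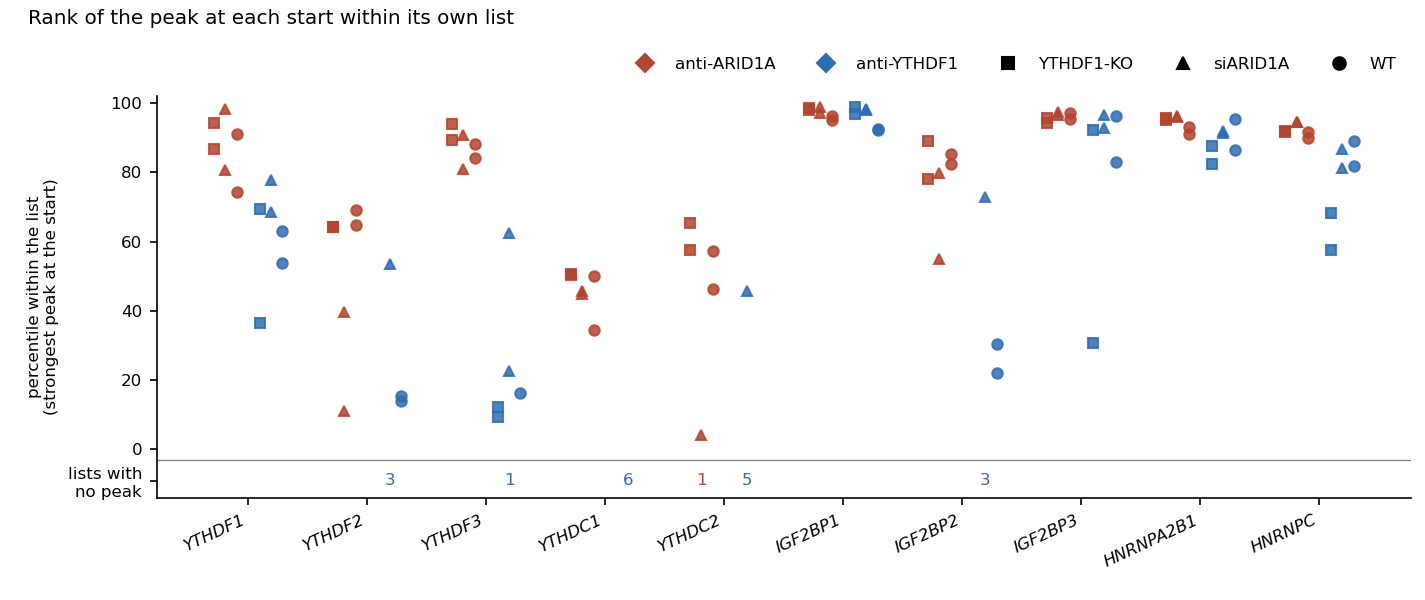
Percentile by total signal, within its own list, of the strongest peak within 1 kb of each reader's start (of the lower-coordinate end for YTHDF3 and IGF2BP1), by antibody and condition, with the number of lists that had no such peak below the line. IGF2BP1, IGF2BP3, HNRNPA2B1 and HNRNPC rank high with anti-ARID1A (89.8 or more), YTHDC1 has no anti-YTHDF1 peak in 6 lists, and YTHDF2 and IGF2BP2 have none in 3.

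The next question was how ARID1A knockdown cells differed from WT cells with the antibody against ARID1A. All 10 readers had lower mean coverage in siARID1A cells, where the median difference over all genes was -6.75 points. The test was passed by 5 of them: YTHDF3, YTHDC1, IGF2BP1, IGF2BP2 and IGF2BP3. Over all genes 41.5% passed the same test as lower and 0.185% as higher (41.7% either way). In this comparison the antibody's own target is knocked down and the lists are shorter. With all lists cut to equal length 1 reader, IGF2BP1, passed. The fit takes its spread from all 6 groups, and with the 4 libraries of this comparison alone 0 readers and 0 genes passed. The 3 IGF2BP genes all fell: the difference was -19.0 ± 4.48 percentage points at IGF2BP1 (adjusted p = 0.0150 by limma), -7.43 ± 0.969 at IGF2BP2 (adjusted p = 0.00239 by limma) and -8.14 ± 1.61 at IGF2BP3 (adjusted p = 0.00818 by limma), each with its SE. YTHDF3 averaged 7.11% ± 1.64 in siARID1A and 16.6% ± 0.177 in WT libraries (SD, n = 2 each, adjusted p = 0.00445 by limma), and YTHDC1 1.64% ± 0.634 in siARID1A and 3.67% ± 0.490 in WT libraries (adjusted p = 0.0427 by limma).

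The other 5 readers were not past the threshold. YTHDF1 had 33.1% ± 3.16 in siARID1A and 46.4% ± 18.0 in WT libraries, and YTHDF2 2.74% ± 2.47 in siARID1A and 6.35% ± 0.216 in WT. HNRNPA2B1 had 9.33% ± 3.07 in siARID1A and 17.8% ± 10.8 in WT, and HNRNPC 8.69% ± 2.67 in siARID1A and 17.1% ± 5.61 in WT. YTHDC2 had 0.396% ± 0.560 in siARID1A and 1.97% ± 0.285 in WT (each SD, n = 2). At 8 of the 10 readers the siARID1A libraries lay below both WT libraries, against 67.7% of all genes, and at 0 of 10 above both (1.21%). The median difference was -8.26 points over the readers and -6.75 over all genes. Brought to the same mean coverage, 0 of the 10 passed and 57 genes did over all, 12 higher and 45 lower, in place of 37 and 8299. Centred on the library medians, 6826 genes were higher and 4407 lower, and of the readers YTHDC1 (5.25 points) and YTHDC2 (5.71) passed as higher, relative to a median of 0.536 over all genes. Centring moves every gene's difference by the same number of points, so a gene with little WT coverage comes out higher whatever its peaks do. Before centring the differences were -2.04 points at YTHDC1 and -1.58 at YTHDC2. In the uncentred fit YTHDC1 lost the call whichever of the 4 libraries was left out. Without siARID1A replicate 1 YTHDF3 and IGF2BP2 alone passed, among 3564 genes, and without WT replicate 2 IGF2BP1 lost the call and HNRNPA2B1 gained it, among 4642 genes. Without WT replicate 1 YTHDF1 gained the call.

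Most start peaks were held in both conditions of this comparison. All 10 starts were held in siARID1A replicate 1 and 9 in replicate 2, which lacked that of YTHDC2, and all 10 in both WT libraries, so no reader lost its start in both knockdown libraries, a pattern of 3.91% of all genes. With lists cut to equal length or at their median signal, YTHDF2 did show it, with both WT lists holding the start and neither siARID1A list, and without siARID1A replicate 1 YTHDC2 did. At IGF2BP2 the peaks per anti-ARID1A list numbered 8 and 7 in siARID1A and 13 and 12 in WT cells, and at IGF2BP3 5 and 6 in siARID1A and 9 and 15 in WT cells. The start peak of YTHDC1 was 709 and 1244 bp wide in siARID1A and 1376 and 1055 bp in WT libraries. With the antibody against YTHDF1, the same cells gave another picture: 0 of 10 readers passed (0.025% of all genes were called, 5 of 19974, and 818 had an unadjusted p under 0.05), the median difference was 0.220 points, and 5 readers were higher and 5 lower. Both siARID1A libraries lay above both WT libraries at IGF2BP3 (16.7% of all genes) and below them at HNRNPA2B1 (6.44%).

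Whether the knockdown's difference from WT itself differed between antibodies was tested as a contrast in the same limma fit, chosen after seeing the data. It passed at YTHDF3 (-9.19 ± 2.20 points, anti-ARID1A difference minus anti-YTHDF1 difference, adjusted p = 0.0282), IGF2BP1 (-22.1 ± 6.34, adjusted p = 0.0447), IGF2BP2 (-7.26 ± 1.37, adjusted p = 0.0164) and IGF2BP3 (-8.75 ± 2.28, adjusted p = 0.0350), by limma. Of all genes 23.5% passed it.

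**Figure D5:**
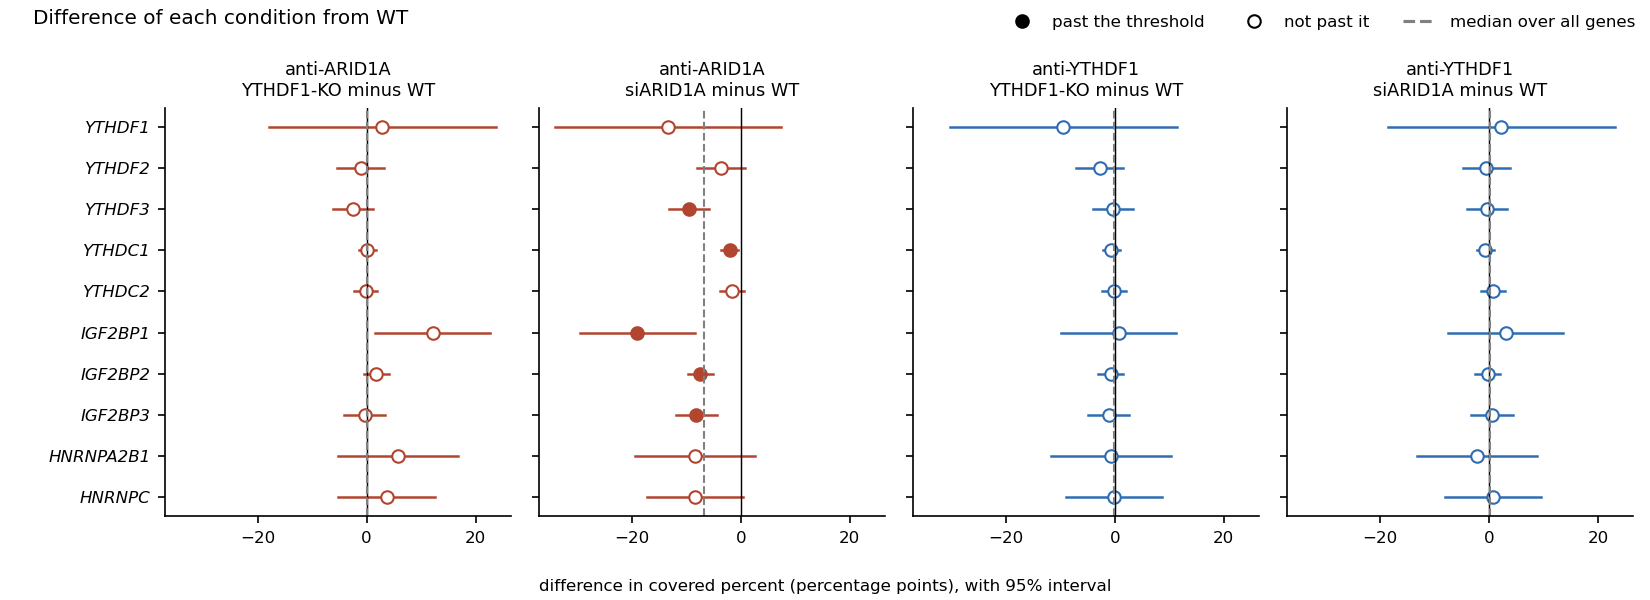
Difference of YTHDF1-KO and of siARID1A from WT in covered percent (percentage points) at each reader, for both antibodies, with the 95% interval of the limma fit, filled points past the adjusted threshold and a dashed line at the median over all genes. With anti-ARID1A the siARID1A points all lie below 0, 5 of them filled, around a median over all genes of -6.75, while no point of the other 3 comparisons is filled.

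YTHDF1 knockout cells were compared with WT cells in the same way. With anti-YTHDF1, 0 of 10 readers passed (0.0751% of all genes were called, 15 of 19974, and 807 had an unadjusted p under 0.05 by limma). YTHDF1 had 13.3% ± 5.43 in YTHDF1-KO and 22.7% ± 13.1 in WT libraries (SD, n = 2 each), a difference of -9.44 points with a 95% interval of -30.2 to 11.3. The other 9 differences lay between -2.76, at YTHDF2, and 0.705, at IGF2BP1, with 95% intervals that all held 0: at YTHDF2 the interval was -7.11 to 1.59 although both knockout libraries had no peak. Losing every peak in the window in both knockout libraries while both WT libraries had one, as YTHDF2 did, was a pattern of 2.18% of all genes, and losing the start so, as YTHDF2 and IGF2BP2 did, of 3.54%. The reverse, a peak in both knockout libraries and neither WT library, was seen at 0 of 10 reader windows (1.81% of all genes) and starts (1.37%). Both patterns rest on weak WT peaks, and they were absent from lists cut to equal length and from lists cut at their median signal. In covered percent, both knockout libraries lay below both WT libraries at YTHDF2 and IGF2BP3 (16% of all genes) and above them at 0 readers (7.34%).

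With anti-ARID1A, 0 of 10 readers passed either (1.99% of all genes were called, 397 of 19974, and 2996 had an unadjusted p under 0.05 by limma). Both YTHDF1-KO libraries lay above both WT libraries at IGF2BP1 and IGF2BP2 (15.1% of all genes) and below them at YTHDF3 (19.9%). The largest reader difference was that of IGF2BP1, 53.8% ± 0.284 in YTHDF1-KO and 41.7% ± 6.15 in WT libraries (SD, n = 2 each), at an adjusted p of 0.255 in the limma fit. Its 95% interval, 1.58 to 22.6 points, is not adjusted over genes. HNRNPA2B1 had 23.6% ± 1.06 in YTHDF1-KO and 17.8% ± 10.8 in WT libraries. The start of every reader was held in both YTHDF1-KO and both WT libraries. The contrast of this difference between antibodies passed at 0 of 10 readers and at 0.205% of all genes (41 of 19974, with 1726 at an unadjusted p under 0.05 by limma).

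Merged over the 12 lists, 133 separate regions touched the reader windows, some reaching beyond them, of which 62 (46.6%) were held by a single list, against 50.7% of all regions in the genome. Those held by all 12 lists numbered 7 (5.26%, against 2.99% of all regions): 2 at YTHDF1, 2 at IGF2BP1 and 1 each at IGF2BP3, HNRNPA2B1 and HNRNPC. The 2 at YTHDF1 were 33731 and 56999 bp wide, from 23.8 to 57.5 kb and from -55.4 to 1.6 kb relative to the start. Most of each lay outside the window, so a list can hold them through peaks beyond it. Regions held by all 6 anti-ARID1A lists and no anti-YTHDF1 list numbered 3, at the start of YTHDC1, 26.7 to 30.0 kb into IGF2BP2 and 55.7 to 61.5 kb from the lower end of IGF2BP1, against 1.08% of all regions. All 6 anti-ARID1A lists shared 20 regions (11.4% of all regions) and all 6 anti-YTHDF1 lists 7 (3.19%). None of the 10 starts was held by fewer lists with anti-ARID1A than with anti-YTHDF1. The anti-ARID1A peaks in the windows had a median width of 1538.5 bp and 15.8% of the 360 lay over a start, while the 177 anti-YTHDF1 peaks had a median width of 1116 bp and 20.9% lay over a start.

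A list of m6A writer and eraser genes and a list of other RNA-binding partners were followed for comparison. Of 14 writer and eraser genes 11 were higher with anti-ARID1A than with anti-YTHDF1, and of 13 partner genes 12, where 72.6% of all genes were. In siARID1A cells 6 of 14 and 6 of 13 passed the test as lower with anti-ARID1A, beside 5 of 10 readers and 41.5% of all genes. ALKBH5, an m6A demethylase, averaged 27.3% in siARID1A and 59.2% in WT cells (difference -31.9 ± 6.05, limma adjusted p = 0.00712), and METTL16, a methyltransferase, 7.21% in siARID1A and 26.8% in WT cells (-19.6 ± 3.18, adjusted p = 0.00434, limma). EIF3A, a translation initiation subunit, averaged 11.2% in siARID1A and 29.2% in WT cells (-18.0 ± 2.22, adjusted p = 0.00208, limma). In YTHDF1-KO cells with anti-ARID1A 1 of the 13 partners and 0 of the 14 writers and erasers passed, beside 1.99% of all genes. The 1 was RBMX, which encodes a nuclear RNA-binding protein, at 3.23% in YTHDF1-KO and 8.62% in WT cells (adjusted p = 0.0101, limma). RBMX was also called in siARID1A cells with anti-ARID1A, at 0% against 8.62% in WT cells (adjusted p = 0.000740, limma). The lists do not set the readers apart: the median differences from WT in siARID1A cells with anti-ARID1A were -8.26 for readers, -4.85 for writers and erasers, -8.02 for partners and -6.75 for all genes.

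ARID1A, the gene whose mRNA was targeted in siARID1A cells (chromosome 1, 26696015 to 26782104), had anti-ARID1A coverage of 18.9% and 15.9% in YTHDF1-KO, 8.48% and 6.06% in siARID1A and 13.2% and 15.5% in WT libraries. A peak at the locus does not measure the knockdown, which acts on the mRNA.

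Genes whose coverage followed that of YTHDF1 or YTHDF2 across the 12 libraries lay on many chromosomes. By Pearson's r, and more than 1 Mb away or on another chromosome, the 5 nearest to YTHDF1 were EBF4 (0.978), SELENOM (0.977), ZNF324B (0.976), RPL32 (0.974) and LAG3 (0.972), where the median r over all genes was 0.787. For YTHDF2 they were HAUS2 (0.958), TRUB1, PIM1, CS and CXADR, with a median over all genes of 0.672. Between YTHDF1 and the other readers r ran from 0.483 (YTHDC2) to 0.906 (IGF2BP1). The 12 points share 2 antibodies and lists of unequal length, and the median over all genes carries the same.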

How the data were processed

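Chromatin of A549 cells was profiled by CUT&Tag in 12 libraries with a deposited peak list, grouped by sample title into 6 groups of 2. The tools named in the submitters' processing notes are SEACR 1.3 (the peak caller), deepTools 3.5.2, bedtools 2.30.0, SAMtools 1.9, Bowtie2 2.4.2 and fastp 0.23.2, and the builds GRCh38 and hg38. Their settings, and whether IgG served as control, are not stated in the sources used here. The deposited signal columns hold the authors' coverage per peak, total and highest, on a scale of each library, so they served only to rank peaks within a list. Only peaks of chromosomes 1 to 22 and X entered, and depth is unknown, so no interval that needs it is given.

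Gene positions came from RefSeq (GRCh38.p14), and strands, available for 15812 of 19974 protein-coding genes, from its promoter table; a gene without a strand was examined at both annotated ends. A list held a start if a peak overlapped 1 kb to either side by 1 bp or more. The percent of each window (gene body and 10 kb to either side) covered by peaks was fitted over all genes and 12 libraries as 6 group means with limma 3.58.1 in R 4.3.3 (moderated variance with trend, 6 residual degrees of freedom, two-sided, Benjamini-Hochberg, threshold 0.05), after tests on simulated data. With 2 libraries against 2 an exact permutation test cannot go below 0.333, so presence is described. Intervals are 95% and single-gene. Replicate numbers did not pair the libraries. The alternatives were other flanks and start windows, lists cut to the shortest (40562 peaks) or at their median signal, centring, scaling, log2(covered bp + 1000), fewer genes or libraries, an overlap of 200 bp, a replicate block and each library left out. The readers and the lists were chosen with earlier results of these data known. Named genes are the 10 readers, genes that overlap their windows, the 5 most alike for each YTHDF gene (those for YTHDF3 are not reported here), at most 6 called genes of each list, and ARID1A.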

Additional observations from a re-analysis of the deposited data

Results flagged for a closer look

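The difference of siARID1A from WT was not the same with both antibodies at 4 readers, by a limma contrast adjusted over all genes. In percentage points, anti-ARID1A difference minus anti-YTHDF1 difference, it was -22.1 at IGF2BP1, -9.19 at YTHDF3, -8.75 at IGF2BP3 and -7.26 at IGF2BP2, and 23.5% of all genes passed the same test. The covered length of the lists moved with it, at 113 ± 20.3 Mb in siARID1A and 247 ± 27.2 Mb in WT cells with anti-ARID1A, and 79.6 ± 2.94 Mb in siARID1A and 69.5 ± 28.4 Mb in WT cells with anti-YTHDF1 (SD, n = 2 each), and its part in the result was not tested.

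At YTHDC1 a single anti-YTHDF1 library stood apart from the other 5: WT replicate 1 had 1.35% of the window covered, by 1 peak at -8997 bp relative to the start, and the others had 0%. With the other 5 values tied at 0, any value above 0 would stand apart in this way, so the size of the gap carries no information. It was the only one of 20 groups of 6 libraries marked.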

How the results depend on the processing

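Over the 10 readers, 780 values were recomputed under other settings, of which 710 kept direction and side of the threshold, 57 lost the call, 4 gained it and 9 turned round. The turned values are all from the antibody comparison or from siARID1A minus WT with anti-ARID1A. Centred on library medians they were -4.22 (YTHDF2), -4.51 (YTHDC1), -6.77 (YTHDC2) and -0.298 (IGF2BP3) points by antibody, and 5.25 (YTHDC1) and 5.71 (YTHDC2) in siARID1A. Scaled to the same mean they were -1.90 (YTHDF1, by antibody) and 0.127 (IGF2BP1, siARID1A), and with equal lists 0.594 (YTHDC1, siARID1A). By construction, centring gives every library the same median coverage and scaling the same mean, while the lists stay unequal in length. Centring also moves the differences of all genes by the same number of points, so readers with little coverage turn round by it alone. The cause of the other changes was not tested.

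By antibody, 5 readers were called after centring, 2 of them higher and 3 lower (those given above), and 3 after scaling, where 4948 genes were called over all. In siARID1A minus WT with anti-ARID1A, the readers called were 3 without a flank, 1 with equal lists, 2 centred, 0 scaled, 1 on the log2 scale and 0 with the 4 libraries of the comparison alone, and the genes called 4665 without a flank, 4654 with equal lists, 57 scaled, 1103 on the log2 scale and 0 with those 4 libraries. In YTHDF1-KO minus WT with anti-YTHDF1 the genes called were 6 with a 3 kb flank, 43 with equal lists, 0 centred, 178 scaled, 46 on the log2 scale, 9 among genes with a peak in 2 lists or more and 0 with 4 libraries. In siARID1A minus WT with anti-YTHDF1 they were 3 without a flank, then, in the order just given, 1, 31, 0, 28, 21, 2 and 0. In YTHDF1-KO minus WT with anti-ARID1A they were 620 with lists cut at their median signal, 36 scaled, 55 on the log2 scale and 0 with 4 libraries. In these 3 comparisons 0 readers were called under any setting run.

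Replicate numbers shared only a number: the correlation of their deviations ran from -0.376 to 0.169 over 15 pairs of groups, 3 of them above 0.1 and 6 above 0. With a replicate block the genes called were 14413 by antibody, 11 and 3 for YTHDF1-KO and siARID1A with anti-YTHDF1, and 216 and 7640 with anti-ARID1A, and no reader's call changed.

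Leaving out each library in turn, 8 to 9 readers were called by antibody (YTHDF2 being lost) and 2 to 5 in siARID1A with anti-ARID1A. Those were YTHDF3 and IGF2BP2 without siARID1A replicate 1, and 4 without siARID1A replicate 2 or without WT replicate 2. The genes called ran from 3564 to 8070 in that comparison, from 65 to 159 and from 55 to 93 for YTHDF1-KO and siARID1A with anti-YTHDF1, and from 345 to 730 for YTHDF1-KO with anti-ARID1A. Presence in 1 condition only needs every library, so it rises when 1 is left out. For windows it then ran from 1909 to 2285 (readers 1 to 2) and 1703 to 2485 (0 to 1) for YTHDF1-KO and siARID1A with anti-YTHDF1, and 654 to 761 (0) and 823 to 1383 (0 to 1) with anti-ARID1A. For starts it ran from 2457 to 2658 (2 to 3) and 2184 to 2902 (0 to 2), and 1012 to 1147 (0) and 1356 to 2161 (0 to 1). The WT-only windows and starts of YTHDF1-KO with anti-YTHDF1 fell to 0 readers with equal lists and with lists cut at their median signal, and the starts also with the window of 250 bases before to 50 after. In siARID1A with anti-ARID1A, windows and starts had 1 reader, YTHDF2, with equal lists and 1, again YTHDF2, with lists cut at their median signal.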
